A study of Rattus norvegicus with 40 samples.

Results

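Kidney T cells were compared with blood T cells of the same rats at 7 weeks of age, the youngest group of the study, over all 64151 regions of the deposited comparison. These are 64151 of the 630893 regions listed in the 15 tables of the series. The rats were Dahl SS/JrHsdMcwi (SS/MCW, called MCW here), an inbred strain that becomes hypertensive when fed much salt, and they ate a chow labelled LS, read here as low salt. All groups of the study are of the Dahl SS background, so no group is a normotensive control strain. DNA was taken from 4 pools of 3 rats, with 1 blood and 1 kidney library from each pool, and was read by reduced representation bisulfite sequencing, which samples CpG-rich fragments of the genome. For comparison, MCW rats and rats of the SS/CRL colony (Dahl SS/JrHsdMcwiCrl) were taken at 10 weeks of age, on LS chow or after 3 weeks on HS chow, again as 4 pools of 3 rats a group. By the labels the cells are T cells of the circulation and the kidney, and no sort or gate is named.

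Methylation of cytosine in CpG pairs is laid down by the Dnmt3 enzymes and copied at cell division by Dnmt1, and the Tet enzymes begin its removal. Promoters rich in CpG are mostly unmethylated, gene bodies mostly methylated, and a distal enhancer commonly loses methylation in the cell type that uses it. Genes of a cell lineage are therefore often unmethylated at their regulatory regions in that lineage and methylated in others, which makes the pattern a stable mark of cell identity.

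Every level below is the authors' level for the 4 pools of a tissue together, in percent methylated. How the pools were combined is not given in the sources used here. Neither single pools nor reads are given in the table, so the depth is unknown and no SD or interval can stand beside a level. Calls required an adjusted p under 0.05 in the authors' Mann-Whitney test together with a difference of 10 percentage points or more. The smallest of these p-values was 3.2e-14, whereas ranking 4 pools against 4 exactly gives at best 0.0286, so values finer than the pool entered that test and its p speaks of these pools only. Positions are of the rn5 build.

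Called differences ran mostly downward: 12249 regions (19.1%) were lower in kidney and 1277 (1.99%) were higher. The mean level over all regions was 29.96% in blood and 23.7% in kidney. At least 1 lower region lay in 3421 of 10922 named genes (31.3%), and at least 1 higher region in 519 (4.75%). With no minimum difference, 48808 regions (76.1%) passed the adjusted p. Under the authors' q-value, a separate column, 2131 regions were lower and 305 higher.

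The direction followed the level in blood. Of 33994 regions at 5% or less in blood, 464 were called higher and 5 lower in kidney. Between 20 and 40% in blood, 1094 of 1996 regions were lower, which is 54.8%, and 258 were higher. Between 60 and 80%, 4565 of 10217 were lower, and above 90%, 1824 of 4032 were lower and 0 higher. Lower regions had a median of 77.2% in blood and 45.3% in kidney. Higher regions had a median of 9.29% in blood and 38.3% in kidney, so the kidney medians of both sets lay at intermediate values. A low level leaves little room to fall and a high one little to rise, and the blood level also enters the difference, so these counts are a description. The 5 low regions called lower are broad ones in which the authors' difference exceeds that of the levels.

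The class column of the table divides regions into promoter, gene body and intergenic. Promoter regions averaged 5.22% in blood and 3.37% in kidney, and 1427 of 26932 were lower (5.30%) and 182 higher (0.676%). Gene bodies averaged 57.9% and 45.9%, with 3917 of 10683 lower (36.7%) and 441 higher (4.13%). Intergenic regions averaged 43.8% and 35.4%, with 6905 of 26536 lower (26%) and 654 higher (2.46%). The low share in promoters went with their low starting level: of promoter regions with at least 10% in 1 of the tissues, 49.1% were lower, against 45.7% in gene bodies and 41.6% between genes. That floor rests on the same levels as the call, so nearly every called region passes it. A region unmethylated in blood enters only through its gain in kidney. By blood level alone, the shares lower of promoter, gene body and intergenic regions were 9.69%, 9.34% and 9.74% between 5 and 20%. Between 40 and 60% in blood they were 76.2%, 47.3% and 51.4%.

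**Figure D1:**
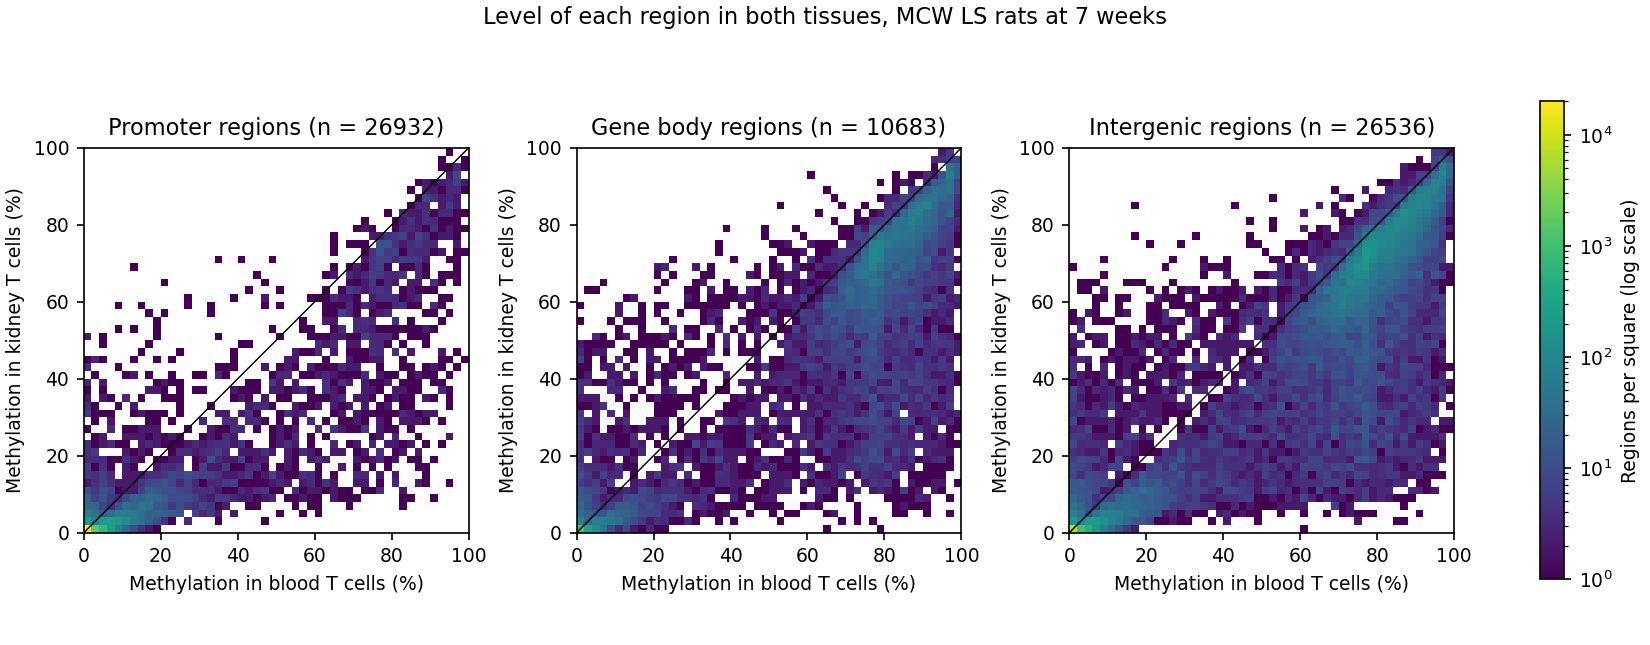
Methylation level of each region in blood T cells (x axis, percent) and kidney T cells (y axis, percent), 1 panel for each class, with colour giving the number of regions per square on a log scale and the line marking equal levels. Most promoter regions sit near 0 in both tissues, while gene body and intergenic regions spread below the line, where 3917 and 6905 were called lower.

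The promoters called in either direction held fewer CpGs than those that were not called. RefSeq promoter sequences (build GRCr8, 250 bases before to 50 after the start) matched 7022 of the 9285 genes with a promoter region. The median count of CpGs in these 300 bases was 16 for 114 promoters of genes called higher, 17 for 882 called lower and 23 for 6335 not called. Fewer than 10 CpGs were found in 29.8% of the first set, 29.3% of the second and 9.01% of the third, against 58.5% of all 33469 RefSeq promoters. Because the regions are of rn5 and the sequences of GRCr8, a called region may lie outside the window.

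Of 6 motifs searched on both strands, CCGGAAG, the core bound by ETS factors, was in 18.6% of uncalled promoters, 8.62% of lower and 8.77% of higher ones, and in 8.75% of all promoters. GAGGAAGT, a form of the PU.1 site that shares the letters GGAAG with it, was in 8 of the 114 higher promoters (7.02%), 2.72% of lower, 2.26% of uncalled and 2.42% of all. TGTGGTT, the RUNX core, was in 6.14%, 3.06%, 2.94% and 5.57% of the same sets. The shares for GGGTGTGG of KLF factors were 2.63%, 4.65%, 3.43% and 3.22%. AGATAAG of GATA factors was in 0%, 1.13%, 1.7% and 2.87%. CAAAGTCCA of HNF4 was in 0%, 0.68%, 0.221% and 0.391%. These matches are descriptions of the letters in the window. CCGGAAG itself holds a CG, and the uncalled promoters held more CpGs. Whether CpG content accounts for the shares of CCGGAAG was not tested.

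Some promoters are shown because their regions carry large called differences and they differ in CpG content, with each CG in capitals. Arhgap30, Lat, Fgd3 and Cybb, all genes of blood cells, were higher in kidney. Slc22a8 and Epcam, of kidney epithelium, were lower. These examples do not stand for their lists: of 88 regions of general leukocyte genes, 10 were higher and 21 lower. Promoter regions of Runx3 and Junb were also lower, as described below. Within these 300 bases Cybb has 3 CpGs, Arhgap30 and Slc22a8 5 each, Lat 7, Fgd3 16 and Epcam 40, by the RefSeq sequences of GRCr8.
Arhgap30, chr13:86354483-86354782, plus strand: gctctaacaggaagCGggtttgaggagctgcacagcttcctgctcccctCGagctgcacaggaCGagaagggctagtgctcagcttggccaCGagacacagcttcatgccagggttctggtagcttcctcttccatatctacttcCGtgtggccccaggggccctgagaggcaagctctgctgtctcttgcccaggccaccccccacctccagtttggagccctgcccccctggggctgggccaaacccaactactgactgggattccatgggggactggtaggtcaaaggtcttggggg
Lat, chr1:190372087-190372386, minus strand: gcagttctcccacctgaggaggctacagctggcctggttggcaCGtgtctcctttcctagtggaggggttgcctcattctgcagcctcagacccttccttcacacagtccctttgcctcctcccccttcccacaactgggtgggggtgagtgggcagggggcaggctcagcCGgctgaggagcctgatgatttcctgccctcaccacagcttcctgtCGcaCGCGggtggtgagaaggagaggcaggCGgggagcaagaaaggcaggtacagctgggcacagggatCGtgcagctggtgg
Fgd3, chr17:15542984-15543283, plus strand: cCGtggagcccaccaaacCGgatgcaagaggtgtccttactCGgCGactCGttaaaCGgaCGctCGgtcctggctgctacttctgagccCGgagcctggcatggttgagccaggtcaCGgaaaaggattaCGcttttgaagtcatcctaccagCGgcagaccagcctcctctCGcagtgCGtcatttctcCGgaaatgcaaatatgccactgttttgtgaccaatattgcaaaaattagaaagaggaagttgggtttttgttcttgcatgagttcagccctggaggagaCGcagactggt
Cybb, chrX:16065016-16065315, minus strand: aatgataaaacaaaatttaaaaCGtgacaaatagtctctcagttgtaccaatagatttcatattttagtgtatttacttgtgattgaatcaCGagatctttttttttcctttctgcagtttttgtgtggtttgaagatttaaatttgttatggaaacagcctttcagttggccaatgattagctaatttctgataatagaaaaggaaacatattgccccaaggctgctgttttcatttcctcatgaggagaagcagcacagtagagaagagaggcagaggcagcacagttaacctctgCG
Slc22a8, chr1:214927034-214927333, plus strand: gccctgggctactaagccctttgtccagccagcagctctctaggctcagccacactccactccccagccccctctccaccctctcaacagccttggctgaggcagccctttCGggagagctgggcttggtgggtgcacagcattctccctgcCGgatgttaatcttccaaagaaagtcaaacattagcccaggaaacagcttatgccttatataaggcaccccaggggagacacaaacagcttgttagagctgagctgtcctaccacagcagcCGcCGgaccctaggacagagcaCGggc
Epcam, chr6:12649629-12649928, minus strand: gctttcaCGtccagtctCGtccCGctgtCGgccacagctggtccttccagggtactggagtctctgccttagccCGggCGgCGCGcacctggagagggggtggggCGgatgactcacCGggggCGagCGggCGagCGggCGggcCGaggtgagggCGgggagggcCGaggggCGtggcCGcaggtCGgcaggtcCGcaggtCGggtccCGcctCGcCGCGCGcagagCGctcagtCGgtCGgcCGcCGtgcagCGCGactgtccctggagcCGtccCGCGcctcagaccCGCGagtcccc
Of the 6, the Fgd3 sequence holds the GAGGAAGT motif and the Cybb sequence the TGTGGTT motif, on either strand.

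Genes of T cell receptor signalling held regions of both directions. Of 28 genes tested, 11 had a higher region and 11 a lower one. Of their 110 regions, 13.6% were higher and 22.7% lower, against 1.66% and 14.2% of all regions with a gene. Of the list's 50 regions with at least 20% in blood, 25 were lower, against 47.3% of all such regions. The median difference of the list was 0 percentage points, against -0.09 for all regions with a gene. Among the lists beside it, marker genes of the proximal tubule were lower in the same preparations, as described below, and the part of other cells in these differences was not tested.

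Genes with a higher region included receptor chains, adaptors, enzymes and potassium channels. The promoter of Lat, the membrane adaptor phosphorylated by Zap70, was at 0% in blood and 31.9% in kidney. The Lcp2 gene body, encoding the adaptor SLP-76 that Lat recruits, went from 11.2% to 56.5%. Dgkz, a kinase that ends diacylglycerol signals below the receptor, went from 6.60% to 65.4%, one of the largest gains of the table. Ptpn6, the phosphatase SHP-1 that damps the receptor, went from 0.301% to 45.9%. Ubash3a, a suppressor of receptor signalling, was higher at its promoter (0.726% and 30.4%) and in its body (9.59% and 41.4%). In blood these 5 genes were at or under 11.2%, and in kidney all were partly methylated.

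Cd247, the zeta chain that carries the receptor's signal into the cell, was higher in 4 of its 6 gene body regions. The levels in blood and kidney were 32.5% and 65.5%, 19.0% and 44.1%, 15.7% and 60.8%, and 67.2% and 87.2%. The other two regions, at 0% and 2.41% and at 84.9% and 79.7%, were not called. Cd28, the co-stimulatory receptor, went from 44.3% to 61.9%. Of 3 promoter regions of Cd8a, which marks cytotoxic T cells, 1 passed, at 41.1% in blood and 71.9% in kidney. The regions beside it were at 64.8% and 50.03%, and at 8.26% and 4.41%. The single Cd8b region was at 78.0% and 73.0% and was not called. The called regions of Cd247, Cd28 and Cd8a did not pass the authors' q-value.

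Lower regions of the same list lay in gene bodies. Zap70, the kinase that docks on the zeta chain, had a region at 90.1% in blood and 37.6% in kidney and another at 68.1% and 23.7%. Fyn, a Src family kinase of the receptor, was at 86.1% and 20.2%, and Skap1, an adaptor for integrin activation, at 80.9% and 24.7%. Vav1, an exchange factor, fell between the tissues from 84.1% to 40.1%, and Prkcq, the kinase PKC-theta, from 88.0% to 51.4%. Nfatc1, a transcription factor switched on by calcium, was lower in 2 regions, at 76.3% and 39.1% and at 74.2% and 47.5%.

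Trafficking genes had the same share of higher regions as the receptor list. Of 14 genes tested, 4 had a higher and 5 a lower region, and 13.6% of 44 regions were higher and 11.4% lower. The background, all regions with a gene, was 1.66% higher and 14.2% lower. Klf2, the factor that keeps T cells in circulation by driving S1pr1, was higher in 2 of its 7 promoter regions. The wider of them, with 18 CpGs, was at 2.40% in blood and 44.9% in kidney, and the other was at 2.79% and 24.6%. S1pr1, the receptor for exit from tissue, was at 31.0% and 58.4%, and S1pr4, a relative on lymphocytes, at 20.6% and 57.3%. Itgae, the alpha E integrin of tissue-resident T cells, was low in blood at 21.9% and lower in kidney at 6.67%. Its partner Itgb7 was at 33.5% and 9.49%.

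A promoter and its gene body could part. Itgal, the LFA-1 alpha chain, was higher at its promoter (5.02% and 45.6%) and lower in its body (93.8% and 48.2%). Kcnn4, the calcium-activated potassium channel of activated T cells, was at 8.21% and 59.8% at its promoter and at 81.9% and 16.4% in its body. In all, 254 of 3686 genes with a called region were called in both directions. A higher promoter with a lower body was seen in 38 genes, and a lower promoter with a higher body in 44. Cubn, an uptake receptor of the proximal tubule, is of the second kind: its promoter was at 80.6% in blood and 25.5% in kidney, and a body region at 0% and 29.4%.

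Lineage transcription factors were mostly unmethylated in both tissues. Of 30 genes tested, 7 had a higher and 9 a lower region, and of 169 regions 5.33% were higher and 11.8% lower. Of all regions with a gene, 1.66% were higher and 14.2% lower, so the share of lower regions lay under that background. The median level of the list was 0.298% in blood and 0.601% in kidney. Runx3, needed for cytotoxic T cells, had 15 regions, of which 6 were lower and 0 higher. The 9 regions starting 1413 to 2904 bases after the start of its first region were at 0.569% or less in blood and 4.31% or less in kidney. On either side, levels in blood and kidney were 61.3% and 17.0%, 64.8% and 10.1%, 84.6% and 11.4%, 71.2% and 8.47%, 88.3% and 15.5%, and 88.8% and 43.7%. The first pair of these is also classed as promoter, so the lower regions lay on both sides of an unmethylated stretch of promoter.

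Runx1, a master factor of blood cell formation, had a gene body region of 17 CpGs at 92.9% in blood and 11.2% in kidney. A promoter region of 14 CpGs was at 33.0% and 11.8%, and the other five of its 7 regions were not called. Gfi1, a repressor in lymphoid and myeloid cells, was at 85.5% and 7.46% over 19 CpGs. Bcl11b, the factor that commits progenitors to the T lineage, was at 51.9% and 7.15% over 12 CpGs. Ets1, a T cell ETS factor, was higher, at 1.74% and 47.1%, and so was Ikzf1, the lymphoid factor Ikaros, at 16.1% and 49.3%. Of 4 regions of Gata3, the factor of type 2 helper cells, 1 promoter region of 16 CpGs passed by a narrow margin, at 0.354% and 10.7%. Of 3 regions of Tbx21, the factor of type 1 helper cells, 0 were called; its body region was at 69.9% and 60.2%. No region was listed here for Cd3e, Cd4, Foxp3, Ifng, Il17a or Lck.

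**Figure D2:**
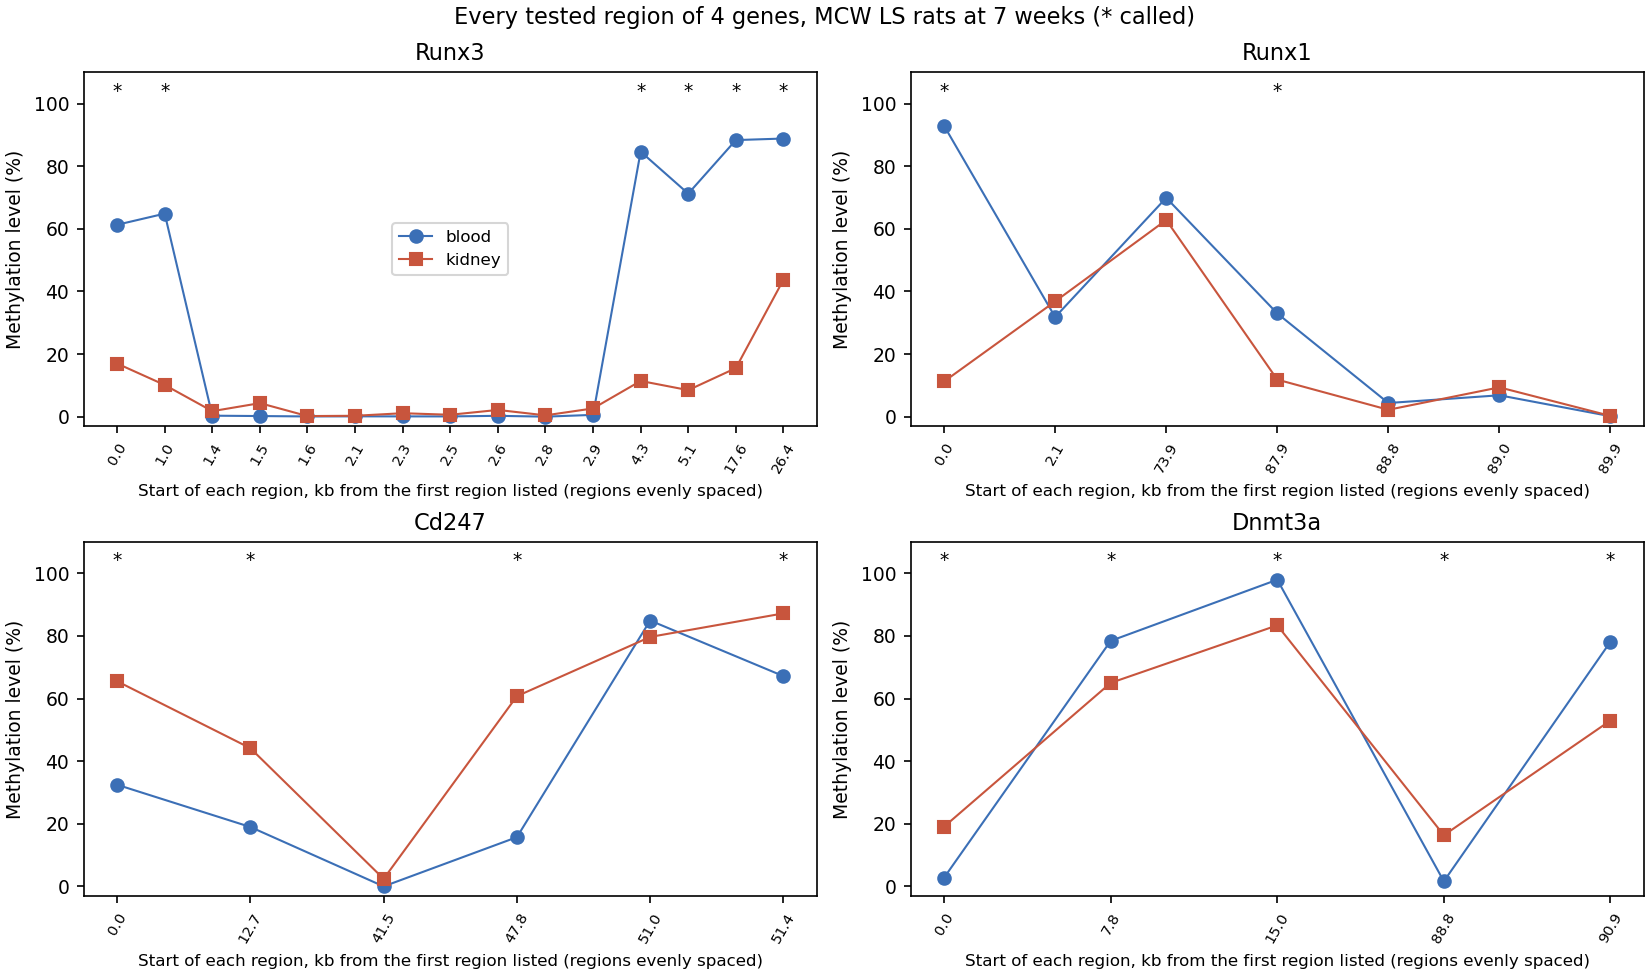
Methylation level (y axis, percent, the authors' level for 4 pools) of every tested region of Runx3, Runx1, Cd247 and Dnmt3a in blood (circles) and kidney (squares), with an asterisk over each called region and the start of each region on the x axis, in kb from the first region listed (regions evenly spaced). The Runx3 regions near 0 in both tissues lie between regions where kidney is lower, whereas 4 of the 6 Cd247 regions are higher in kidney. The called regions of Cd247 and Dnmt3a did not pass the authors' q-value.

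Cytokine receptor and JAK-STAT genes had about the background share of lower regions. Of 27 genes of cytokine receptors and JAK-STAT signalling, 2 had a higher and 9 a lower region, and of 97 regions 3.09% were higher and 14.4% lower, against 1.66% and 14.2% of all regions with a gene; 17 genes had no called region. All 4 gene body regions of Jak3, the kinase of the common gamma chain, were lower. Blood and kidney levels were 93.4% and 11.8%, 82.5% and 22.0%, 88.3% and 40.2% (26 CpGs), and 78.0% and 46%. The Jak3 promoter region was at 0.0784% in blood and about 0% in kidney. Il1r2, a decoy receptor for interleukin-1, was at 81.6% and 19.0% at its promoter, and Il12rb1, a receptor chain for interleukin-12, at 91.9% and 46.2%. Tgfbr2, the receptor for TGF-beta, was called both ways, with its largest gain at 38.3% and 78.2% and its largest loss at 79.1% and 35.9%.

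Among 8 cytokine and effector genes, 1 had a higher and 4 a lower region, and of 21 regions 4.76% were higher and 23.8% lower, against the same background. Of the 6 regions with at least 20% in blood, 5 were lower, against 47.3% of all such regions. Il4, the main cytokine of type 2 helper cells, was at 74.7% and 17.5%, and Tgfb1, which encodes TGF-beta, at 76.2% and 15.5%. Tnfsf8, the CD30 ligand, was higher, at 0.759% and 31.6%. Of 26 genes of activation, exhaustion and NF-kappa B, 2 had a higher and 10 a lower region, with 1.57% and 8.66% of 127 regions, shares under those of all regions with a gene. Map3k14, the kinase NIK of the alternative NF-kappa B pathway, was at 88.0% and 8.78%. Junb, an AP-1 subunit, was at 46.6% and 2.27% at its promoter.

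Of 18 genes of the DNA methylation machinery, 2 had a higher and 3 a lower region, and of 70 regions 5.71% were higher and 7.14% lower, against 1.66% and 14.2% of all regions with a gene. All 5 regions of Dnmt3a, which lays down new methylation, were called, but none of them passed the authors' q-value. Its promoter regions were at 2.80% and 19.1%, and at 1.63% and 16.3%, so kidney was higher. Its body regions were at 78.4% and 65.0%, 98.0% and 83.4%, and 78.1% and 53.0%, so kidney was lower. Dnmt3l, its cofactor in germ cells, had a higher region at 4.56% and 35.9% and a lower one at 85.3% and 70.4%. Promoter regions of Dnmt1 and Dnmt3b were all under 0.25% in both tissues and not called, and no region was listed here for Tet1, Tet2 or Tet3.

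Genes used across leukocytes were also split. Of 27 tested, 9 had a higher and 14 a lower region, and of 88 regions 11.4% were higher and 23.9% lower. The background of all regions with a gene was 1.66% and 14.2%. Of the 32 leukocyte regions with at least 20% in blood, 20 were lower, against 47.3% of all such regions. Arhgap30, a GTPase regulator of blood cells, was at 0.487% and 51.3% at its promoter, and Nckap1l, the Hem1 subunit of the actin regulator WAVE in blood cells, at 0.116% and 43.7%. Dok2, an adaptor that restrains signalling, was at 20.3% and 64.0% over 12 CpGs. Dock8, needed for lymphocyte migration, was lower, at 98.6% and 38.2%, as was Cd37, a tetraspanin of lymphocytes, at 91.9% and 30.1%. Blood was near 0 at the Arhgap30 and Nckap1l promoters but not at that of Dok2, which also had a lower promoter region, at 65.1% and 40.3%.

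Among marker lists of kidney cells, the share of regions called lower was highest for the proximal tubule, whose cells reabsorb most of the filtrate. Of its 25 genes tested, 19 had a lower and 1 a higher region, and 49.1% of its 53 regions were lower and 1.89% higher, against 14.2% and 1.66% of all regions with a gene. The mean level of the list was 49.6% in blood and 28.1% in kidney, and its median difference -7.52 percentage points. Of its 33 regions with at least 20% in blood, 26 were lower, against 11724 of 24771 regions (47.3%) in the whole table. Slc22a8 and Slc22a6, the organic anion transporters OAT3 and OAT1, were at 86.4% and 20.3%, and at 84.6% and 28.0%. Slc34a1, the sodium phosphate cotransporter, was at 86.8% and 17.0%. Megalin, encoded by Lrp2, was lower in 2 regions, at 93.0% and 59.2% over 16 CpGs and at 79.7% and 33.1%.

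For the other kidney lists the shares of all regions with a gene, 14.2% lower and 1.66% higher, serve as the same background, and no difference between lists was tested. The loop and podocyte lists lay under it in their share of lower regions. Of 18 loop and distal tubule genes, 8 had a lower and 4 a higher region (11.1% and 6.17% of 81 regions). Of the 17 loop regions with at least 20% in blood, 8 were lower, against 47.3% of all such regions. Of 11 collecting duct genes, 5 had a lower and 0 a higher region (28.6% and 0% of 35 regions), and all 10 of its regions with at least 20% in blood were lower. Of 24 epithelial and nephron genes, 11 had a lower and 1 a higher region (16.7% and 3.33% of 90), and 11 of its 14 regions with at least 20% in blood were lower. Of 11 podocyte genes, 6 had a lower and 4 a higher region (10.7% and 4.76% of 84). Of the 17 podocyte regions with at least 20% in blood, 7 were lower. Epcam, the adhesion molecule of epithelia, was at 80.1% and 21.05% at its promoter, and Scnn1a, a subunit of the sodium channel ENaC, at 59.9% and 14.1% over 15 CpGs. Pax2, a regulator of nephron formation, was lower at 1 promoter region (15.6% and 1.63%) and higher in 3 body regions, of which the largest gain was from 7.63% to 24.8%.

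Endothelial and stromal markers were lower in 17 of 26 genes and higher in 4 (23.9% and 3.54% of 113 regions). The same background, 14.2% lower and 1.66% higher, holds for each list given here. With at least 20% in blood, 27 of 46 endothelial and stromal, 10 of 16 myeloid and 6 of 15 B cell regions were lower. For all such regions the share was 47.3%. Tie1, a receptor kinase of endothelium, was at 94.5% and 20.3%, Robo4, an endothelial guidance receptor, at 92.3% and 29.1%, and Acta2, smooth muscle actin, at 90.9% and 31.8%. Nos3, the endothelial nitric oxide synthase, had a higher region at 22.6% and 64.0%. Myeloid markers were lower in 9 of 13 genes and higher in 1 (36.7% and 3.33% of 30 regions), with Fcgr1a, the high affinity receptor for IgG, at 86.2% and 21.7% over 15 CpGs and the integrin Itgam at 74.8% and 16.5%. For Cebpb, a myeloid transcription factor, the authors' difference passed at a promoter region of 177 CpGs whose levels, 1.65% and 0.789%, differ by far less; a second region was at 26.7% and 8.48%. Of 7 B cell markers, 2 were lower and 1 higher (20% and 3.33% of 30 regions), and the 1 natural killer marker tested was not called. The labels give no share of other cells in the kidney preparations. In such bulk levels, another share of a cell type and a changed level per cell cannot be told apart, and the part of these cell types in the differences was not tested.

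**Figure D3:**
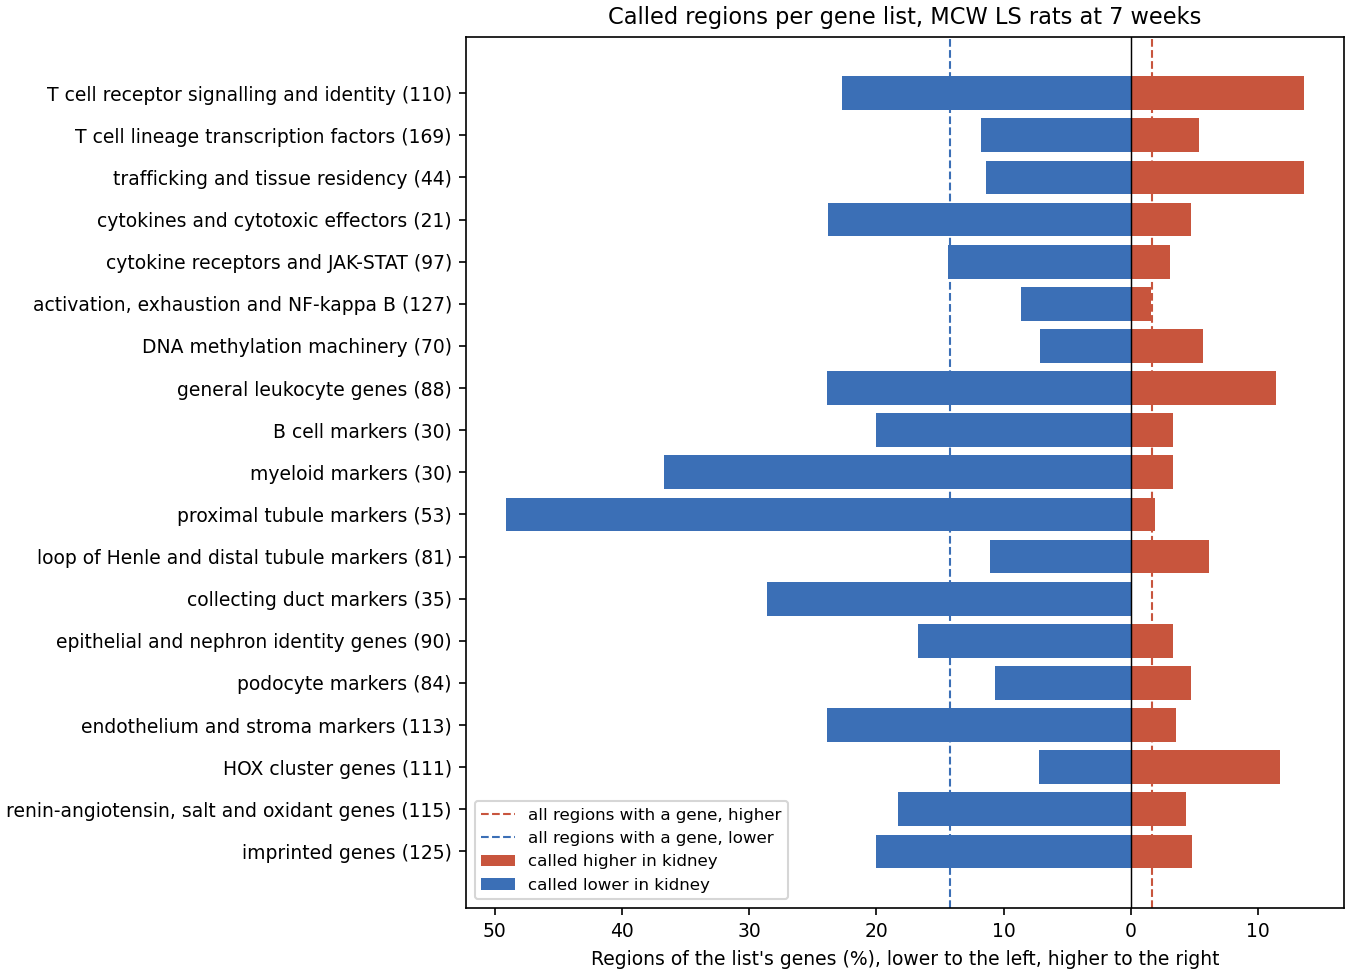
Percentage of the regions of each gene list called lower in kidney (bars to the left) or higher (bars to the right), with the number of regions in brackets and dashed lines at the 14.2% and 1.66% of all regions with a gene; lists with under 20 regions are left out. The proximal tubule list reaches 49.1% lower, and the T cell receptor and trafficking lists 13.6% higher.

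Genes of salt handling and blood pressure, the subject of the strain, had lower regions in 13 of 29 genes and higher ones in 5 (18.3% and 4.35% of 115 regions). The background of all regions with a gene was 14.2% lower and 1.66% higher. Of the list's 45 regions with at least 20% in blood, 21 were lower, against 47.3% of all such regions. Ace, the angiotensin converting enzyme, was at 72.9% and 10.0% and Sgk1, a kinase that raises sodium uptake, at 90.6% and 31.7%. Stk39, the kinase SPAK that activates sodium chloride cotransporters, was at 95.7% and 39.5% over 10 CpGs. Cybb, the catalytic subunit of the phagocyte NADPH oxidase, was higher, at 1.91% and 42.9% at its promoter. It is also on the myeloid list, and the only higher gene there.

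Homeobox genes of the HOX clusters had 13 higher and 8 lower of 111 regions (11.7% and 7.21%), against 1.66% and 14.2% of all regions with a gene. The directions differed by cluster: HOXD had 11 higher and 0 lower of 35 regions, HOXB 1 and 5 of 29, HOXA 1 and 3 of 27, and HOXC 0 and 0 of 22. The clusters hold 1 symbol that the list does not, so their regions add to more. All 5 promoter regions of Hoxd12, a limb and hindgut patterning gene, were higher, from between 11.4% and 17.6% in blood to between 25.6% and 59.1% in kidney. Hoxd3 was higher in 5 of 7 regions. Hoxb3 was lower at a promoter region, at 58.9% and 13.0%, and Hoxa6 likewise, at 56.0% and 9.99%.

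Imprinted genes, whose parental copies normally differ in methylation, had a lower region in 12 of 24 genes and a higher one in 6 (20% and 4.8% of 125 regions). Among all regions with a gene, 14.2% were lower and 1.66% higher. Of the 54 imprinted regions with at least 20% in blood, 23 were lower, against 47.3% of all such regions. Gnas, encoding the stimulatory G protein alpha subunit, was lower in 6 and higher in 2 of 19 regions. Nnat lies within Blcap, and both share a region at 92.6% and 37.8% and one at 36.0% and 50.4%. A further called region, at 36.2% and 22.1% over 12 CpGs, is listed for Nnat alone. Kcnq1, a potassium channel gene of an imprinted domain, was lower in 4 body regions, of which the largest was at 85.2% and 25.8%, and higher in 1, at 12.6% and 51.4%.

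The share of lower regions in microRNA genes was close to the background. Of 128 tested, 43 had a lower and 6 a higher region, in 28 and 8 of 221 regions (12.7% and 3.62%), against 14.2% and 1.66% of all regions with a gene; several share a region, so genes are not separate counts. The cluster of Mir99b, Mirlet7e and Mir125a had 1 promoter region of 16 CpGs at 82.7% in blood and 30.7% in kidney. That of Mir200c and Mir141, a family known for holding cells in an epithelial state, had 1 of 14 CpGs at 79.3% and 53.7%. Mir196a and Mir196c, which lie in HOX clusters, were higher, at 5.77% and 19.5% over 18 CpGs and at 13.5% and 40.4% over 15. Mir182 was higher at 49.9% and 70.6%. Mature sequences from RefSeq (117 of 128 genes matched) are shown for these, with the seed, bases 2 to 8, in capitals. Mir196a and Mir196c share the seed AGGUAGU, whereas the seeds of miR-200c and miR-141 differ.
miR-99b-5p: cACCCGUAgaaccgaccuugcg
let-7e-5p: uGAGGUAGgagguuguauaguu
miR-125a-5p: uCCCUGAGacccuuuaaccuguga
miR-200c-3p: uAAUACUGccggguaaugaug
miR-141-3p: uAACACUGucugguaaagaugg
miR-196a-5p: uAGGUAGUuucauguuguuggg
miR-196c-5p: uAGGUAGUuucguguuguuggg
miR-182: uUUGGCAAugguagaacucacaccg

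The largest decreases came in gene bodies that were nearly fully methylated in blood. Map7, a microtubule-binding protein of epithelia, was at 97.5% and 5.87%, and Prkce, the kinase PKC-epsilon, at 97.6% and 8.85%. Sh2d3c, an adaptor of lymphocyte and endothelial signalling, was at 90.5% and 4.68%, Sulf2, a sulfatase of heparan sulfate, at 91.1% and 6.97%, and Sipa1, a Rap1 regulator of leukocytes, at 94.1% and 11.0%. Def6, an exchange factor below the T cell receptor, had 31 CpGs at 89.9% and 7.17%. Its adjusted p, taken from the authors' deposited table, was 1.69e-12. Another body region of Def6 was called higher in kidney, at 6.00% and 33.2%, and its remaining body regions were called lower. Largest at a promoter was Vps37d, at 91.2% and 9.11% over 14 CpGs, followed by Fnbp1l, an actin regulator, at 94.2% and 12.7%, and Psmb10, an immunoproteasome subunit, at 84.3% and 8.07%. Cdk17, Ascc1 and Dctn6 completed the 10 genes with the largest decreases, at 91.3% and 8.40%, 94.9% and 12.3%, and 95.6% and 13.6%.

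The 10 largest increases of genes began at 12.3% or less in blood. Leprotl1, a relative of the leptin receptor transcript, was at 2.94% and 63.0%, Stom, the membrane protein stomatin, at 4.25% and 63.2%, and Rgs6, a regulator of G protein signalling, at 1.96% and 58.2% over 9 CpGs. Eps15l1, of endocytosis, was at 0.132% and 54.5%, and Etv3, an ETS repressor, at 12.3% and 68.9% at its promoter. Fgd3, a Cdc42 exchange factor, rose over 12 promoter CpGs from 1.06% to 51.7%, and had the same adjusted p by the authors' deposited table. Slco3a1, an organic anion transporter, was at 11.1% and 59.6%.

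Regions outside genes are given by position only. Their largest increases were larger than any in a gene, and their largest decreases smaller than that of Map7. The largest decreases were at chr19:69447214-69447293 (90.8% and 5.34%), chr7:36026191-36026335 (87.2% and 2.69% over 10 CpGs) and chr6:59472896-59472997 (94.6% and 10.3%). The largest increases were at chr5:151505794-151505865 (16.3% and 85.3%), chr17:19595379-19595457 (0.780% and 68.6%) and chr7:100835036-100835185 (9.32% and 70.5%).

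Broad regions were called less often, but they also started lower, with a median of 0.134% in blood against 3.46% of all regions. Of 3158 regions with at least 20 CpGs, 194 were lower (6.14%) and 37 higher (1.17%), against 19.1% and 1.99% of all regions, with medians of 57.9% and 13.7% in the first set and 4.28% and 24.7% in the second. Agap2, a GTPase activator, had a promoter region of 71 CpGs at 88.1% and 14.8%, and Rasal3, a Ras regulator of T cells, a gene body region of 43 at 89.1% and 10.5%. Zfp316, a zinc finger gene, was higher over 76 CpGs, at 13.3% and 43.1%, and Mab21l2, a developmental gene, over 30, at 1.41% and 38.5%. Camta1 had the most called regions, 36 lower and 4 higher of 71. The ribosomal 5.8S RNA symbol followed, with 39 lower and 0 higher of 165 regions on 4 chromosomes, but it is a repeated sequence and its copies cannot be told apart, so it is uncertain. Ppil1, Muc19 and Ccdc40 had 18 of 27, 16 of 44 and 14 of 39 regions called, as did a predicted gene with 16 of 70.

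The comparison of MCW rats on LS chow at 10 weeks came from other pools. There, 12006 of 42856 regions were lower (28.0%) and 989 higher (2.31%). Of the regions called lower at 7 weeks that overlapped a tested region at 10 weeks, 8919 of 10019 (89.0%) were lower again and 1 was higher. For the higher ones, 808 of 1051 (76.9%) were higher again and 13 were lower. Seen from the 10 week list, 82.2% of its overlapping lower regions and 89.6% of its higher ones were called at 7 weeks. Pearson's r of the differences was 0.956 over 33329 regions; regions are not independent replicates.

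Lower regions differed by a median of -23.4 percentage points at 7 weeks and -26.8 at 10 weeks. The kidney median was 40.3% at 7 weeks and 33.9% at 10 weeks, and the blood median 76.6% and 76.0%. Higher regions differed by a median of 22.8 points at 7 weeks and 18.5 at 10 weeks, with kidney at 37.3% and 31.4%. These regions were picked on their 7 week difference, which alone makes a 10 week difference smaller on average. The lower regions nonetheless had the larger difference at 10 weeks in these MCW LS rats. The other 10 week groups went both ways. Over the overlapping regions, medians at 7 weeks and in the other group were -22.4 and -17.2 for MCW HS. They were -23.0 and -26.1 for CRL LS, and -22.3 and -21.7 for CRL HS. Whether the tissue difference changes with age was not tested, since no table holds that interaction.

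Over all 4 other comparisons, which share no pool with the 7 week one, 520 of 734 higher regions tested in each (70.8%) and 5437 of 7993 lower ones (68.0%) were called the same way in 4 of 4. Called in none were 23 (3.13%) and 215 (2.69%). The difference at the Lat promoter was 31.9 points at 7 weeks and 33.7, 31.5, 27.6 and 30.5 in MCW LS, MCW HS, CRL LS and CRL HS rats at 10 weeks. That of the Def6 body region of 31 CpGs was -82.7, and -84.1, -69.8, -86.3 and -81.1 in the same order. The Slc22a8 promoter spread more widely, at -66.1, and -83.5, -53.8, -72.3 and -71.7. At the Arhgap30 promoter the difference was 50.8 points at 7 weeks and 20.6 in MCW LS rats at 10 weeks. At the first Dnmt3a promoter region it was 16.3 at 7 weeks and 3.04, 31.3, 0.0934 and 10.5 at 10 weeks, so that this gain was not seen in every condition.

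**Figure D4:**
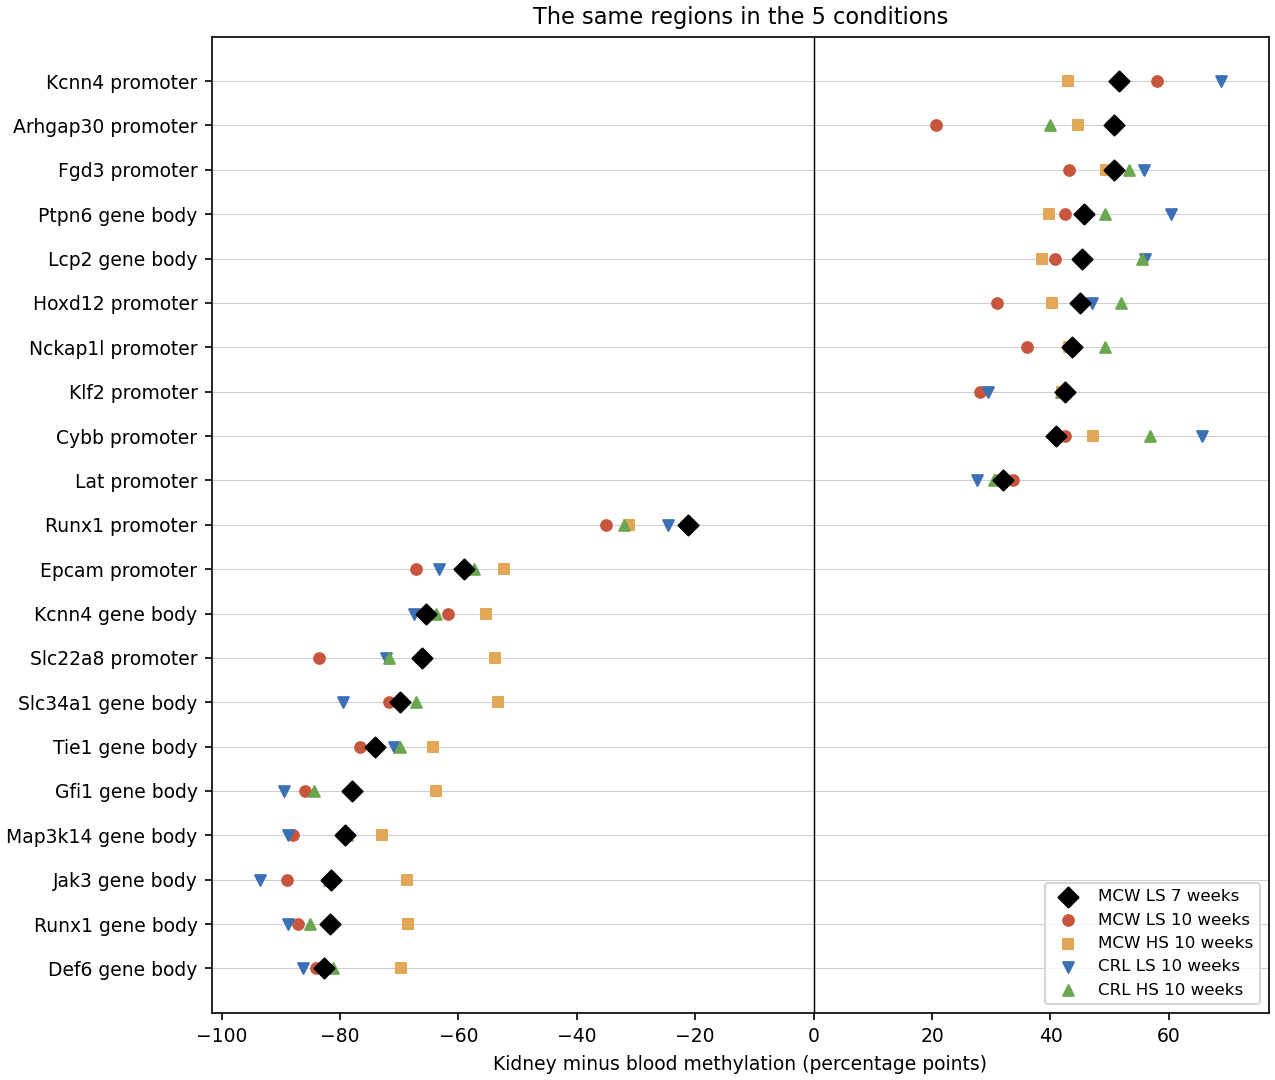
Difference of kidney minus blood in percentage points (x axis) for 21 called regions, with diamonds for MCW LS rats at 7 weeks and other markers for the 4 conditions at 10 weeks; a missing marker means no overlapping region. All markers of a region lie on the same side of 0, and the Arhgap30 promoter at 7 weeks (50.8) lies farthest from MCW LS rats at 10 weeks (20.6) among the regions higher in kidney.

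The authors also compared the 2 ages within each tissue of MCW rats on LS chow, with the 7 week libraries used above. In kidney, 1645 of 48640 regions were higher at 7 weeks (3.38%) and 100 lower (0.206%). In blood, 95 of 32843 were higher (0.289%) and 123 lower (0.375%). The mean level was 15.6% at 7 weeks and 14.3% at 10 weeks in kidney, and 39.0% and 39.1% in blood. Under the authors' q-value, 41 and 1 regions passed in kidney and 3 and 9 in blood.

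The regions higher at 7 weeks included many tubule markers. In kidney, 721 of 10001 genes had a region higher at 7 weeks (7.21%) and 45 a lower one (0.450%). Of the proximal tubule list, 13 of 20 genes had a higher and 0 a lower region at 7 weeks, of imprinted genes 11 of 23 and 0, and of endothelium and stroma 7 of 22 and 0. For the T cell receptor list the counts were 5 of 26 and 0, and for lineage factors 2 of 25 and 0. Ggt1, gamma-glutamyltransferase of the tubule brush border, was at 48.4% at 7 weeks and 17.2% at 10 weeks. Aqp1, a water channel of tubule cells, was at 36.5% and 18.8% at its promoter, and Hnf4a, a regulator of tubule cells, at 45.97% and 21.6%. The Arhgap30 promoter was at 52.0% and 22.1%. Lower at 7 weeks were Mok, a kinase gene, at 24.4% and 43.4%, and Pcsk1n, an inhibitor of a prohormone convertase, at 32.7% and 49.6%. Since the tubule list is both lower in kidney than in blood and higher in kidney at 7 than at 10 weeks, its values stand beside each other here; both comparisons use the same 7 week kidney libraries.

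In blood, the largest difference of a region with a gene was at Neurl1b, a ubiquitin ligase of Notch signalling, at 32.1% at 7 weeks and 60.5% at 10 weeks over 63 CpGs. Sod3, the extracellular superoxide dismutase, was the other way, at 87.9% and 66.8%. Neurl1b also shows where the tissue table is least certain, since its 38 CpGs there are called higher in kidney while the levels are 27.2% in blood and 23.9% in kidney.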

How the data were processed

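Per the labels, DNA of blood and kidney T cells was read by reduced representation bisulfite sequencing in 100 cycles. The submitters' processing notes name rn5 as the build. Which aligner and caller were used is not given in the sources used here, nor is coverage. The authors deposited methylation levels as a fraction, printed here in percent, their difference, p-value columns and a q-value, for regions of at least 5 CpGs. Adjusting their Mann-Whitney p-value by Benjamini-Hochberg gave their adjusted column (largest departure 5e-16).

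Differences were turned to kidney minus blood. In 2.67% of regions the authors' difference departed from that of the levels by over 0.2 percentage points; 60 called regions differ in level by under 10 points and 4 go the other way. Calls and counts were computed with Python 3.11.15 and pandas 2.3.3. The planned CpG island class and genomic context are the same column. No per-sample columns were left unused (0), and tables were overlapped by at least 1 base. Promoter and miRNA sequences are RefSeq, GRCr8; of 10922 symbols, 10227 are current and 8229 have a promoter sequence.

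The regions and the 20 gene lists were chosen with earlier results of these data known. Named genes were the 10 largest increases and decreases, the 3 largest increases and decreases per class, the 5 genes with the most called regions, up to 5 per list and direction, and a fixed set of T cell and methylation genes; a few genes that this rule names are not reported here, and a few others were named after their values were seen, namely those of the broad regions, the microRNAs, the tables of the 2 ages and second regions or further members of lists. On simulated data with known answers, 100 of 100 regions changed by 30 points among 5000 were recovered, with 0 false calls. That change lies well above the limit of 10 points, and the depth of the real libraries is unknown. How often the calls err in the real data was not tested. Alternatives were other limits on the p-value, difference and CpG number, a level floor, overlap and the level columns.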

Additional observations from a re-analysis of the deposited data

How the results depend on the processing

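No paired analysis was possible because the tables hold a single level per group and no value per pool. For the same reason no pool could be left out. In each of these alternatives lower calls outnumbered higher ones. Counts higher and lower in kidney were 8675 and 29865 with no minimum difference, 739 and 6731 with 20 points, 305 and 2131 by the q-value and 165 and 1465 with at least 10 CpGs; they were 1272 and 12196 by the level columns and 1261 and 12026 without sex chromosomes and unplaced sequence, both within 1.5 times the counts in the report.

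Shares higher and lower were, for promoters, 0.334% and 2.76% at 20 points, 0.189% and 1.07% by the q-value, and 6.29% and 49.1% over regions with at least 10% in a tissue. For gene bodies they were 2.44% and 21.9%, 1% and 7.2%, and 5.15% and 45.7%. For intergenic regions they were 1.46% and 13.7%, 0.554% and 4.04%, and 3.94% and 41.6%. Promoters had the lowest shares lower in the first 2 settings but the highest over the floor, so the order of classes depends on that floor. Genes of any list were 63 higher and 165 lower, against 20 and 59 by the q-value and 40 higher at 20 points. With at least 20% in blood, 20 of 46 lineage factor, 5 of 13 trafficking and 14 of 30 JAK-STAT regions were lower. So were 9 of 15 of activation, 5 of 8 of the methylation machinery and 6 of 8 of HOX genes. For all such regions the share was 47.3%. Of 181 named regions called, 88 passed the q-value and 93 did not. Among the genes described above, no called region of Dnmt3a, Cd247, Cd28, Cd8a, S1pr1, S1pr4 or Itgal passed it, nor did the Lat promoter. The same holds for Il4, Il1r2, Prkcq, Nfatc1, Skap1, Ikzf1, Itgae, Itgb7, Tgfbr2, Slc22a6, Pax2 and Nos3. These genes are examples, and others described above may not pass it either.

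Regions called at both ages were 444 higher and 5424 lower at 20 points, which is 71% and 93.2% of those called at 7 weeks; with at least 50% overlap the shares were 80.6% and 91.5%. In the age tables, counts higher and lower at 7 weeks with no minimum difference were 10608 and 7539 in kidney and 1168 and 1952 in blood. By the q-value, chosen after seeing the data, they were 41 and 1 in kidney and 3 and 9 in blood. The depth is unknown, so what it limits cannot be said. The cause of these shifts was not tested beyond the limits themselves.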

Other observations

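Calls were spread over all chromosomes listed, from 15.9% of regions lower on chromosome 8 to 24.6% on chromosome 12, and from 1.16% higher on chromosome X to 3.08% on chromosome 20. In the share lower, chromosome X was at 16.2%.

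In the age comparison of kidney, the 7 week level of a region was equal to that of the tissue comparison, within 0.01 percentage points, in 8.72% of the 4195 regions with the same bounds and at least 10% methylation. The median absolute difference was 0.519 points and the largest 8.52. In blood, 89.0% of 3332 such regions were equal. The tables therefore do not hold the same 7 week kidney values, and the sources used here do not say why.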
